A study of Homo sapiens with 12 samples.

Results

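Of the type I interferon response, 8 genes were followed across all 12 libraries of a study of perfluorinated acids in nasal epithelial cells. They are IFIT1, IFIT2, IFIT3 and IFIT5, the helicase genes DDX60 and DDX60L, and the neighbouring genes SAMD9 and SAMD9L. The genes were taken by symbol from a table of 50868 genes, after several of them had been seen to be lower with PFHxA than in the controls. Their values for PFHxA against control are therefore given as a description, with no p-value, and counts of calls among them are set only beside the share of all tested genes. All 8 were among the 16554 genes with enough reads to be tested.

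The cells were RPMI2650, an established human epithelial line from a tumour of the nasal septum, labelled as wild type and grown at an air-liquid interface. There were 4 libraries after perfluorohexanoic acid (PFHxA), 4 after perfluorobutanoic acid (PFBA) and 4 controls. Both acids were given at 1 µM for 7 days. Both belong to the perfluoroalkyl carboxylic acids, with a longer perfluorinated chain in PFHxA than in PFBA. The control libraries are labelled only as control, and the labels state neither a vehicle nor a culture time for them. All 3 groups are the same tumour-derived line and represent neither separate donors nor a mixed tissue. Nothing in the labels says that the 4 libraries of a group came from separate cultures, so p-values measure the spread between these libraries, which may be technical.

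The IFIT proteins are built of tetratricopeptide repeats and bind viral RNA. IFIT1 recognises RNA whose cap lacks the methyl mark of host messengers, IFIT3 stabilises IFIT1 in a complex with IFIT2, and IFIT5 binds RNA with a 5′ triphosphate. DDX60 is a helicase of the DExD/H-box class that has been linked to signalling by RIG-I-like receptors, and DDX60L is its paralog. SAMD9 and SAMD9L are paralogs that restrict poxvirus replication and hold back cell growth. Interferon induces this class of genes through a promoter motif, the interferon-stimulated response element, which transcription factors activated by interferon signalling bind.

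The promoter stretches below are shown to mark where letters of that motif occur in each gene. Each runs from 160 bases before to 10 bases after the RefSeq start of the gene (GRCh38.p14), 5′ to 3′ along the gene, with the first of 2 entries used for IFIT3, and capitals mark matches to GAAANNGAAA on either strand. IFIT1 lies at chr10:89392463-89392632 (+), IFIT3 at chr10:89327837-89328006 (+), IFIT5 at chr10:89414408-89414577 (+) and DDX60 at chr4:168318743-168318912 (-). DDX60L lies at chr4:168480483-168480652 (-), SAMD9 at chr7:93117970-93118139 (-) and SAMD9L at chr7:93148376-93148545 (-).
IFIT1: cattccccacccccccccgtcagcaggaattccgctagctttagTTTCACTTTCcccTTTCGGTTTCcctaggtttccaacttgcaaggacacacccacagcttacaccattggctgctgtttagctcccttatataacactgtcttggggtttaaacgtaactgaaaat
IFIT3: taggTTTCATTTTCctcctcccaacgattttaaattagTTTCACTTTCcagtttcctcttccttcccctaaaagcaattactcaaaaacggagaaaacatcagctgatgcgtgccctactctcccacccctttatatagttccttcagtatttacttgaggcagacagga
IFIT5: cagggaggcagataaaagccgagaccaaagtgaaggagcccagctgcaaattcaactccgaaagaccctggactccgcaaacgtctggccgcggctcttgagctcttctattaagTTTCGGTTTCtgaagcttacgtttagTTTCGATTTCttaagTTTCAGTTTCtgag
DDX60: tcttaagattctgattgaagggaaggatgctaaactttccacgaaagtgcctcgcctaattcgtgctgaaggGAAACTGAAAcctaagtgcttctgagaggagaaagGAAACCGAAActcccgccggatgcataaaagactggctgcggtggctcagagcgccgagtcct
DDX60L: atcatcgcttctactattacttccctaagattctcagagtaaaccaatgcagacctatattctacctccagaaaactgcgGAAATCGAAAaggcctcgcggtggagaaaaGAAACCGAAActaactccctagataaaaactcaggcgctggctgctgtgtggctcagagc
SAMD9: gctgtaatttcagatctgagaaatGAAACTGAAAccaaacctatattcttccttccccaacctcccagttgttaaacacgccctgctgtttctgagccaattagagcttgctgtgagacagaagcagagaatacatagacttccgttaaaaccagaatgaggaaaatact
SAMD9L: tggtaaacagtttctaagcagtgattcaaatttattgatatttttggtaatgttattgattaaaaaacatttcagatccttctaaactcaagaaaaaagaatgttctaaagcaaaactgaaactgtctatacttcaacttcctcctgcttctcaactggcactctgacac

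In the RefSeq windows, which run from 250 bases before to 50 bases after each start, 7 of the 8 genes had an entry. GAAANNGAAA, searched on both strands and with no other motif, occurred 3 times for IFIT5, 2 times each for IFIT1, DDX60 and DDX60L, and 1 time for SAMD9. IFIT3 has 2 entries with different starts, and each of these windows held 2 matches. The window of IFIT1 held it 106 and 93 bases before the start, and that of DDX60 78 and 43 bases before it. SAMD9L had no match, which says only that these letters are not in this window. Of all 35116 promoter windows of the same length, 3.57% held at least 1 match and 0.26% held 2 or more. A match is a description of the letters and not a measured binding site.

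In the deposited table (GRCh38) the IFIT genes sit in a row on the plus strand of chromosome 10. IFIT2 spans chr10:89301955-89309276, IFIT3 chr10:89327894-89340971, IFIT1 chr10:89392546-89406486 and IFIT5 chr10:89414586-89421001. On the minus strand of chromosome 4 lie DDX60 (chr4:168216293-168318807) and DDX60L (chr4:168356735-168537786), whose RefSeq start used above lies inside that span. SAMD9 (chr7:93099513-93118023) and SAMD9L (chr7:93130055-93148369) are neighbours on the minus strand of chromosome 7. LIPA, a lysosomal lipase gene on the opposite strand, spans the positions of IFIT1, IFIT2 and IFIT3, and PALLD overlaps DDX60L on the opposite strand. Only whole gene spans were compared, not exons, and the strand setting of the counting is not given in the sources used here. Whether reads of these overlapping genes were kept apart is therefore not known. LIPA averaged 312.5 ± 65.3 CPM with PFHxA, 283.9 ± 73.5 with PFBA and 279.6 ± 68.5 in controls (SD, n = 4 each), and PALLD averaged 52.3 ± 2.53, 53.8 ± 3.78 and 48.0 ± 1.65 CPM in the same groups. Neither passed the test in any of the 3 comparisons. Paralogs with near-identical stretches may also share reads, so the split between DDX60 and DDX60L, or between SAMD9 and SAMD9L, is uncertain.

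Libraries held 16941599 to 21879105 counted reads, and levels are given as CPM, the counts scaled to each TMM-adjusted library total. Of the epithelial markers, KRT5 averaged 2046 CPM with PFHxA, 1812 with PFBA and 1921 in controls, whereas KRT14 and TP63 averaged under 2 CPM in each group. VIM, a mesenchymal marker, averaged 649.3, 693.3 and 687.9 CPM in the same order. It belongs to a list of 10 mesenchymal and neural markers, of which 8 were tested. Against control, 7 of the 8 were fitted higher with PFHxA, and only VIM was lower, at -0.08. FN1 alone of them was called, at 0.31 on the log2 scale (adjusted p = 0.00554 in edgeR). It kept a value of 0.31 (adjusted p = 0.00943 in edgeR) once the trend over GC content and length was taken out. Between the acids, 5 were fitted higher with PFHxA and 3 lower, with 0 calls. The summed level of 11 epithelial markers ran from 3259 to 3419 CPM with PFHxA, from 2944 to 3066 with PFBA and from 3163 to 3198 in controls. The 3 ranges do not overlap, and KRT5 is the largest part of each sum. Of the 11 markers, 8 were fitted higher with PFHxA than in controls and 3 lower. EPCAM was among the lower ones (adjusted p = 0.0384 by edgeR's quasi-likelihood test). Between the acids, 7 were fitted higher with PFHxA and 4 lower. Of these only KRT5 was called, at 0.18 on the log2 scale (adjusted p = 0.0117 in edgeR), beside 3.84% of all tested genes called higher. With the GC and length trend removed, neither EPCAM against control (adjusted p = 0.179) nor KRT5 between the acids (adjusted p = 0.342 in edgeR) was called. Of all tested genes, 9.49% lay wholly higher with PFHxA than in controls and 2.8% wholly lower with PFBA than in controls. Between the acids, 9.24% lay wholly higher with PFHxA than with PFBA. These shares are for single genes, and no such share was computed for sums of genes. The part of these marker differences in the results below was not tested. The 10 leukocyte and plasmacytoid dendritic cell markers summed to 1.31 to 3.03 CPM over all libraries, with CLEC4C, LILRA4 and IL3RA among those at 0 in all 12. CD68, at 1.92 CPM with PFHxA, 1.72 with PFBA and 1.45 in controls, made up most of that sum. The 5 endothelial markers summed to 7.00 to 11.8 CPM, most of it CDH5 at 8.87, 8.47 and 8.62 CPM in the same groups. In bulk RNA, fewer cells of a kind and less RNA per cell cannot be told apart. One property of whole libraries set the PFHxA group apart, the slope of a library's log2 levels over transcript GC content. It was 0.0706 to 0.104 per 10 percentage points of GC in the PFHxA libraries, -0.065 to 0.00417 in PFBA libraries and -0.0661 to -0.0132 in controls. All 4 PFHxA libraries lay above all others, so that this slope and the PFHxA treatment cannot be told apart by design. The slope over transcript length was 0.0138 to 0.0251 per doubling in PFHxA libraries and -0.0632 to -0.00899 in controls. For PFHxA against control, it too cannot be told apart from treatment. The PFBA libraries, at -0.0208 to 0.0329, enclosed the PFHxA range.

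The 8 genes covered a wide range of levels. Per length of transcript, as CPM over the kilobases of the longest GENCODE 29 transcript, IFIT1 was highest, with 34.7 ± 0.987 in PFHxA libraries, 39.6 ± 1.97 in PFBA libraries and 45.0 ± 3.85 in controls (SD, n = 4 each). In controls it was followed by IFIT3 at 18.8, IFIT2 at 12.9, IFIT5 at 10.3 and SAMD9 at 3.75 CPM per kb. SAMD9L, at 1.54, overlapped in its libraries with DDX60L at 0.658, and DDX60 was lowest at 0.595 CPM per kb. In percentiles of the tested genes, the control level of IFIT1 stood at 92.4, that of SAMD9 at 41.7 and that of DDX60 at 14.2. The order of the means was the same in the 3 groups. The libraries of SAMD9 and SAMD9L overlapped with PFHxA, and those of DDX60L and DDX60 with PFHxA and with PFBA. The order of near neighbours rests on the transcript length used, which was not varied.

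All 4 IFIT genes had a lower mean in the PFHxA libraries than in both other groups. IFIT1 stood at 160.7, 153.5, 161.5 and 164.1 CPM in PFHxA libraries a to d, at 188.1, 175.0, 175.4 and 193.0 CPM in PFBA libraries and at 207.0, 201.0, 190.5 and 232.3 CPM in controls. Every PFHxA library was below every PFBA library and every control, and PFBA d reached into the control range. IFIT2, which can promote cell death besides binding RNA, had 41.6, 36.6, 38.9 and 37.8 CPM in PFHxA libraries, 41.2, 46.2, 48.1 and 45.0 in PFBA libraries and 46.7, 51.1, 47.2 and 46.6 in controls. Here PFHxA a lay just above the lowest PFBA library, while the PFHxA and control ranges did not meet. IFIT3 showed the narrowest PFHxA group, at 40.4, 39.0, 39.1 and 38.9 CPM, against 48.1, 43.2, 45.8 and 47.4 CPM in PFBA libraries and 45.9, 45.6, 46.2 and 50.0 CPM in controls. IFIT5 had 35.2, 33.7, 34.9 and 32.5 CPM in PFHxA libraries, 41.3, 42.6, 38.4 and 41.2 in PFBA libraries and 39.0, 43.1, 41.0 and 41.45 in controls. For both genes the PFBA and control ranges overlapped, and the PFHxA libraries lay under both.

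**Figure D1:**
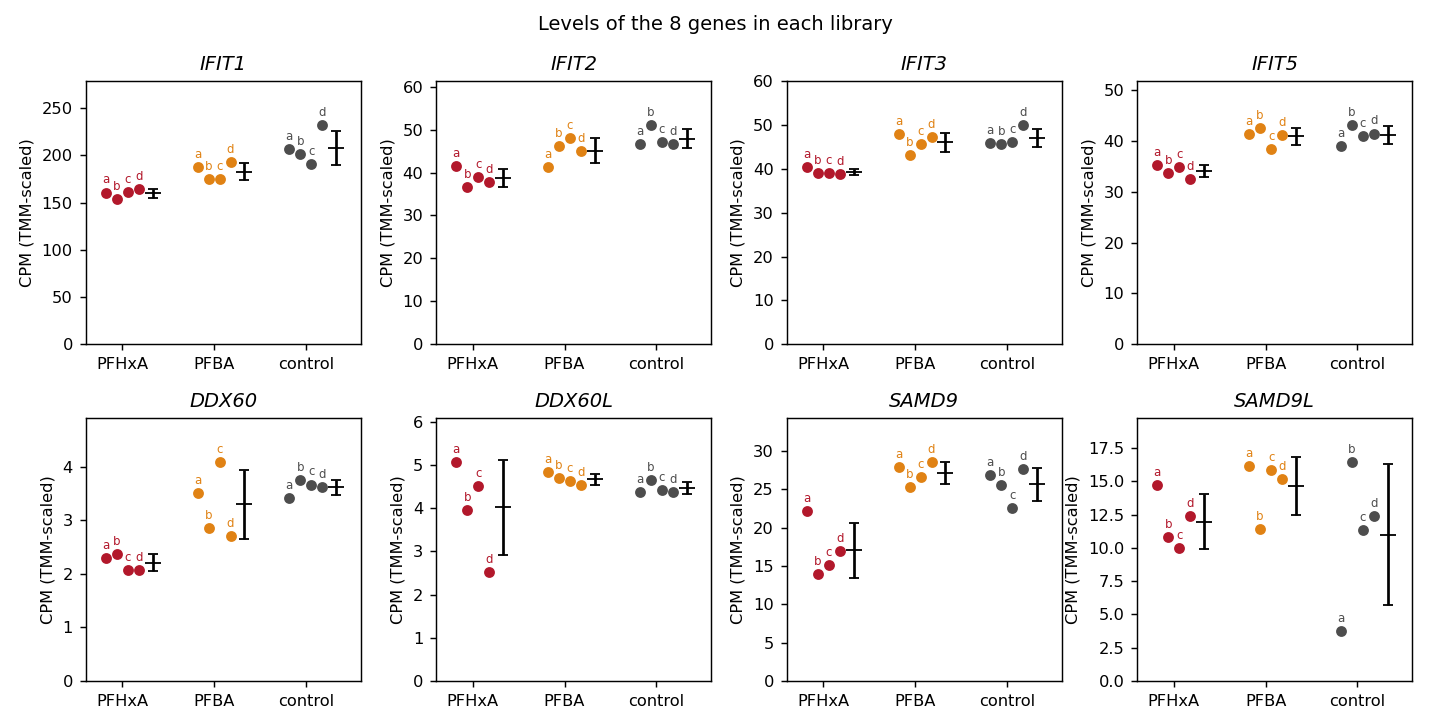
TMM-scaled CPM (linear axes from 0) of the 8 genes in each library, with letters naming the libraries and a bar for the mean and SD of each group (n = 4). All 4 PFHxA libraries lie under all controls for IFIT1, IFIT2, IFIT3, IFIT5, DDX60 and SAMD9, while DDX60L and SAMD9L overlap and control a stands low for SAMD9L at 3.73 CPM.

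DDX60 was rare in these cells, with 37 to 45 reads in the PFHxA libraries, 53 to 85 in the PFBA libraries and 62 to 74 in controls. These are 2.29, 2.38, 2.07 and 2.08 CPM with PFHxA, 3.51, 2.86, 4.09 and 2.71 CPM with PFBA and 3.40, 3.75, 3.67 and 3.62 CPM in controls. The PFHxA libraries were the lowest 4 of all, and the PFBA libraries spread the widest. Its paralog DDX60L overlapped between all groups and stood at 5.08, 3.96, 4.53 and 2.52 CPM in PFHxA libraries, 4.83, 4.69, 4.62 and 4.54 in PFBA libraries and 4.38, 4.66, 4.42 and 4.38 in controls. PFHxA a was the highest and PFHxA d the lowest of the 12 libraries, so that this group enclosed the other groups.

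SAMD9 had 22.1, 14.0, 15.2 and 16.9 CPM in PFHxA libraries, 27.97, 25.4, 26.6 and 28.6 in PFBA libraries and 26.9, 25.6, 22.6 and 27.6 in controls. Its PFHxA libraries were the lowest 4, though PFHxA a came close to control c. SAMD9L stood at 14.8, 10.8, 10.001 and 12.4 CPM in PFHxA libraries, 16.1, 11.4, 15.8 and 15.1 in PFBA libraries and 3.73, 16.5, 11.4 and 12.4 in controls. Control a, with 80 reads, was the lowest of the 12 libraries and control b the highest, so that the control group alone spanned all the others.

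For PFHxA against control, which chose the genes, the log2 fold changes were -0.38 for IFIT1, -0.31 for IFIT2, -0.25 for IFIT3 and -0.27 for IFIT5. They were -0.71 for DDX60, -0.59 for SAMD9, -0.15 for DDX60L and 0.13 for SAMD9L. Without control a the value of SAMD9L was -0.16, so its sign rests on that library. Without PFHxA d the value of DDX60L was 0.02, so its sign rests on that library too. Of the 8 genes 6 were called lower, by edgeR's quasi-likelihood test at an adjusted p under 0.05, beside 8.82% of all tested genes. The same 6 had PFHxA libraries wholly below the controls, beside 11.2% of all tested genes. As the genes were chosen from this contrast, nothing is read from these counts. The members' median log2 fold change was -0.29, and that of all tested genes was -0.00385.

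PFHxA and PFBA were compared at the same dose and time, as 1 pair of compounds over the 8 genes, with p-values adjusted over all tested genes. Of the 8 genes 6 were lower with PFHxA than with PFBA. The log2 fold changes were -0.19 for IFIT1 (SE 0.0573, adjusted p = 0.046 by edgeR's quasi-likelihood test), -0.22 for IFIT2 (SE 0.0591, adjusted p = 0.0307), -0.23 for IFIT3 (SE 0.0486, adjusted p = 0.0103) and -0.26 for IFIT5 (SE 0.051, adjusted p = 0.00628). The differences were larger for DDX60, at -0.58 (SE 0.143, adjusted p = 0.0201), and SAMD9, at -0.67 (SE 0.119, adjusted p = 0.00409). All 4 PFHxA libraries lay below the PFBA mean for each of these 6 genes, and below every PFBA library for the 5 other than IFIT2. Among all tested genes, 7.07% were called lower and 10.8% had PFHxA libraries wholly below the PFBA libraries. This comparison shares its PFHxA libraries with the one that chose the genes, so the count is not independent support.

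The other two members were not distinguished between the acids. DDX60L had a log2 fold change of -0.22 between PFHxA and PFBA, with a 95% interval from -0.57 to 0.13 (adjusted p = 0.437 by edgeR's quasi-likelihood test). SAMD9L had -0.29, from -1.05 to 0.47 (adjusted p = 0.654 by the same test). Both intervals hold 0 as well as differences larger than those of the IFIT genes, and a miss of the threshold does not show that the acids act alike on them.

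The calls between the acids ended when the trend over GC content and length was removed. With the dependence of each library on GC content and length taken out by offsets (GC and length trend removed), 0 of the 8 genes were called lower with PFHxA than with PFBA, beside 0.62% of the 16452 genes with a GC content. The values were then -0.10 for IFIT1, -0.13 for IFIT2, -0.16 for IFIT3, -0.07 for IFIT5, -0.42 for DDX60 and -0.47 for SAMD9, with adjusted p of 0.474, 0.352, 0.101, 0.642, 0.194 and 0.0645 in edgeR. At an unadjusted p under 0.05, 2139 of all genes passed in that fit. Leaving out 1 library at a time, IFIT3, IFIT5 and SAMD9 were called in 12 of 12 fits, DDX60 in 8, IFIT2 in 6 and IFIT1 in 3. The count of members called was 3 without PFBA c, PFHxA c or PFHxA d. With the column letter as a block, IFIT2 had an adjusted p of 0.0551 in edgeR.

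**Figure D2:**
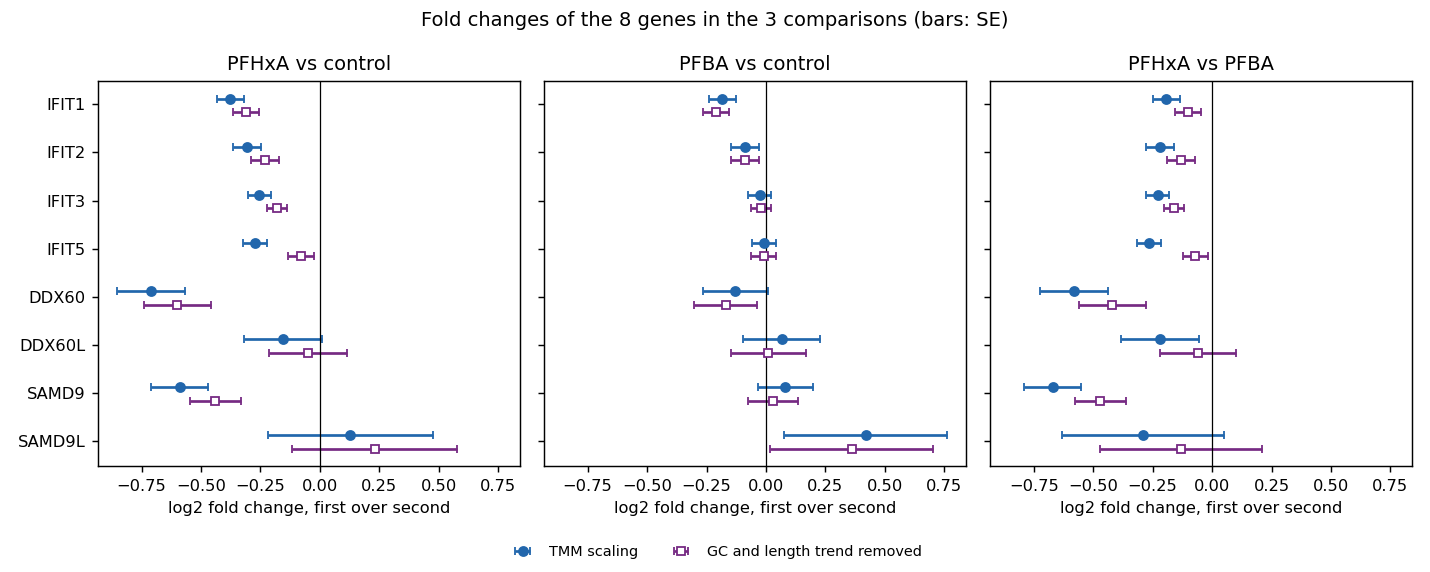
Log2 fold changes of the 8 genes (first group over second, horizontal axis) in the 3 comparisons, with bars for the SE, from TMM scaling (filled circles) and after removal of the GC and length trend of each library (open squares). PFHxA lies to the left of 0 against PFBA for all 8 genes, and with the trend removed IFIT5 stands at -0.07 in place of -0.26 and SAMD9 at -0.47 in place of -0.67.

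PFBA against control gave no call for any of the 8 genes, and 1 of all tested genes (0.00604%) was called. At an unadjusted p under 0.05, 1632 genes passed in edgeR, and DESeq2 called 44 genes but none of these 8. IFIT1 came nearest, with 182.9 ± 9.07 CPM in PFBA libraries and 207.7 ± 17.8 CPM in controls (SD, n = 4 each). Its log2 fold change was -0.18, with a 95% interval from -0.31 to -0.06 and an adjusted p of 0.344 in edgeR, and 3 of 4 PFBA libraries lay below every control. IFIT2 had a value of -0.09, IFIT3 of -0.03, IFIT5 of -0.01 and DDX60 of -0.13. DDX60L had 0.07, SAMD9 0.08 and SAMD9L 0.42. The last has a 95% interval from -0.34 to 1.18 and stood at 0.13 without control a. The members' median was -0.02. For IFIT3 and IFIT5 the intervals ran from -0.13 to 0.08 and from -0.12 to 0.10. This comparison shares its control libraries with PFHxA against control and its PFBA libraries with the comparison of the acids.

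All 8 transcripts had a GC content below the median gene. Their GC content ran from 36.1% for SAMD9 to 44.3% for IFIT3, whereas the median of the tested genes was 48.5%. Transcript lengths ran from 2496 bases for IFIT3 to 7134 bases for SAMD9L, against a median of 3252. Among the 5541 tested genes between 36 and 45% GC, the median log2 fold change was -0.13 for PFHxA against control, 0.01 for PFBA against control and -0.13 for PFHxA against PFBA. Of these genes 19.6% were called lower for PFHxA against control and 16.9% for PFHxA against PFBA. With the trend removed, PFHxA against control gave -0.31 for IFIT1, -0.23 for IFIT2, -0.18 for IFIT3, -0.08 for IFIT5, -0.60 for DDX60 and -0.44 for SAMD9. Then 3 of the 8 were called lower, namely IFIT1, IFIT3 and DDX60, beside 1.82% of all genes, and again nothing is read from that count. DDX60 kept the largest difference of the 8 in that fit.

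**Figure D3:**
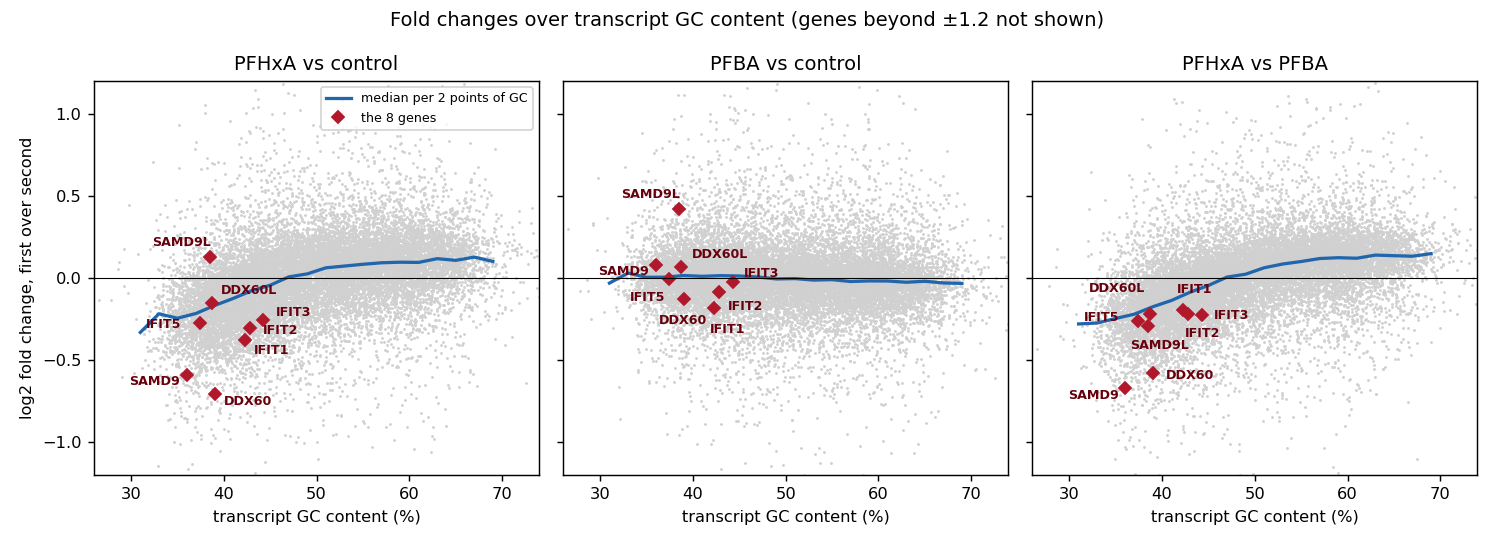
Log2 fold change (first group over second) of each tested gene against the GC content of its longest transcript in percent, with the median per 2 points of GC as a line and the 8 genes as diamonds. In both panels with PFHxA on top the line lies below 0 at low GC, where the 8 genes sit; among genes of 36 to 45% GC the median is -0.13 against control and -0.13 against PFBA.

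Within groups most correlations between the genes were weak. Each gene's log2 CPM was taken as its deviation from the group mean, and 28 pairs of genes were correlated over the 12 libraries, with exact tests over all 13824 rearrangements within groups. The correlations ran from -0.31 to 0.76, with a median of 0.16, and 22 of 28 were positive. No pair passed adjustment over the 28, and 5 had an unadjusted p under 0.05. The highest was IFIT1 with IFIT3 (r = 0.758, exact p = 0.0321, adjusted p = 0.234; rho = 0.734, exact p = 0.0253, adjusted p = 0.256), with r = 0.681 without the 2 libraries farthest from the median. The lowest was IFIT2 with IFIT3 (r = -0.314, exact p = 0.3975; rho = -0.294, exact p = 0.3696), although both pairs belong to the same complex. IFIT1 and IFIT2 had r = -0.275 (exact p = 0.389; rho = -0.294, exact p = 0.393). DDX60 with DDX60L gave r = 0.184 (exact p = 0.483; rho = 0.343, exact p = 0.296), and SAMD9 with SAMD9L gave r = 0.144 (exact p = 0.621; rho = 0.315, exact p = 0.345).

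The same deviations were set against each library's GC slope, as its deviation from the group mean, for the 8 genes. SAMD9 was lower in libraries whose signed slope lay higher within their group (r = -0.614, exact p = 0.000868, adjusted p over the 8 genes = 0.00694; rho = -0.783, exact p = 0.00174, adjusted p = 0.0139). Without the 2 libraries farthest from the median its r was -0.625. SAMD9 also has the lowest GC content of the 8 genes, at 36.05%. How many of all tested genes correlate with the slope in this way was not computed, so the result is not read as particular to SAMD9. IFIT1 (r = -0.659, exact p = 0.0344, adjusted p = 0.138; rho = -0.692, exact p = 0.0363, adjusted p = 0.145) and IFIT3 (r = -0.696, exact p = 0.0584, adjusted p = 0.156; rho = -0.58, exact p = 0.0917, adjusted p = 0.244) did not pass adjustment. The other 5 genes had r between -0.08 and 0.36.

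The genes whose within-group deviations were most like those of the members were sought among 11533 tested genes with a mean of at least 5 CPM, by Pearson's r over the 12 libraries. Nearest to the average of the IFIT genes were ZFAND1 (0.94), NDUFV3 (0.93), CRADD (0.93), SHLD2 (0.91) and FAM133DP (0.90). For DDX60 they were ZNF317 (0.93), CENPP (0.85), NOMO1 (0.85), EDC3 (0.85) and ATP2A2 (0.84), and for SAMD9 they were WDR43 (0.98), ZNF644 (0.98), DDX18 (0.95), OTUD6B-AS1 (0.94) and NOL8 (0.93). None of these 15 genes belongs to the interferon lists below, and their GC content ran from 33.5 to 48.4% for those nearest to the IFIT genes, from 47.2 to 53.4% for those nearest to DDX60 and from 37.0 to 40.5% for those nearest to SAMD9. The points of these correlations share libraries, depth and base composition, and the highest of so many genes are high by selection.

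The other genes of the pathway were taken as lists. The 10 interferon genes listed had almost no reads, and interferon genes outside this list were not looked at. Over all 12 libraries IFNB1 had 1 read, IFNK 2 reads and the other 8 of the list 0 reads. A count of 0 allows up to 3 reads in a library. All 18 genes of interferon receptors and signalling were tested. For PFHxA against control 2 rose and 0 fell, beside 6.08% of all tested genes called higher and 8.82% called lower, and the list's median log2 fold change was 0.03. They were TYK2, a kinase of this signalling, at 0.30 (SE 0.0612, adjusted p = 0.00678 in edgeR), and STAT3, at 0.21 (SE 0.0502, adjusted p = 0.0145). PTPN2, a phosphatase of this pathway, had -0.30 (adjusted p = 0.134 in edgeR). Between the acids, where 3.84% of all tested genes were higher with PFHxA, TYK2 at 0.24 (adjusted p = 0.0214) and STAT3 at 0.20 (adjusted p = 0.0241 in edgeR) were higher with PFHxA, while JAK2 had -0.29 (adjusted p = 0.0649) and IFNAR1 -0.10 (adjusted p = 0.158). None of these 18 was called with the trend removed.

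Of 21 nucleic acid sensors and adaptors with a row of counts, 18 were tested, and for PFHxA against control 1 rose and 3 fell, beside 6.08% of all tested genes called higher and 8.82% called lower, with a median log2 fold change of 0.06. TBK1, the kinase that relays sensor signals to interferon genes, was lower at 46.1 ± 2.59 CPM with PFHxA, against 67.2 ± 5.76 CPM in controls (SD, n = 4 each; log2 fold change -0.54, SE 0.0687, adjusted p = 0.00117 in edgeR). TLR3, a sensor of double-stranded RNA, had -0.53 (adjusted p = 0.0349), and IFI16, a DNA sensor, had -0.37 (adjusted p = 0.0432 in edgeR). MAVS, the adaptor of the RIG-I-like receptors, rose by 0.17 on the log2 scale (adjusted p = 0.0107 in edgeR). Between PFHxA and PFBA, TBK1 (-0.46, adjusted p = 0.00204) and IFI16 (-0.45, adjusted p = 0.0207) were lower and MAVS (0.15, adjusted p = 0.0241 in edgeR) was higher, beside 7.07% of all tested genes called lower and 3.84% called higher. DDX58, which encodes RIG-I, had -0.26 (adjusted p = 0.0769 in edgeR). With the trend removed TBK1 alone of the 18 was called, at -0.36 against control (adjusted p = 0.00943) and -0.29 against PFBA (adjusted p = 0.0371 in edgeR).

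Of 72 other interferon-stimulated genes with a row of counts, 62 were tested. For PFHxA against control 4 rose and 2 fell, beside the same 6.08% and 8.82% of all tested genes, with a median log2 fold change of -0.03. RNF213, a large ubiquitin ligase, rose by 0.38 on the log2 scale (SE 0.0508, adjusted p = 0.00128 in edgeR) and MX1, an antiviral GTPase, by 0.14 (adjusted p = 0.0309). TRIM22 fell by 0.26 on the log2 scale (adjusted p = 0.0074 in edgeR) and HERC5, the ligase that attaches ISG15, by 0.36 (adjusted p = 0.0242). Between the acids 4 were higher with PFHxA and 0 lower, beside 3.84% and 7.07% of all tested genes. These were MX1 (0.16, adjusted p = 0.0199), RNF213 (0.21, adjusted p = 0.02), ISG15 (0.33, adjusted p = 0.0273) and HLA-C (0.13, adjusted p = 0.0477 in edgeR). With the trend removed RNF213 alone was called, at 0.19 for PFHxA against control (adjusted p = 0.0171 in edgeR), and 0 of the 62 between the acids. PFBA against control gave 0 calls in all of these lists by edgeR. The median GC content of the 3 tested lists was 50.3, 51.4 and 51.2% in the order given, above that of each of the 8 genes.

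**Figure D4:**
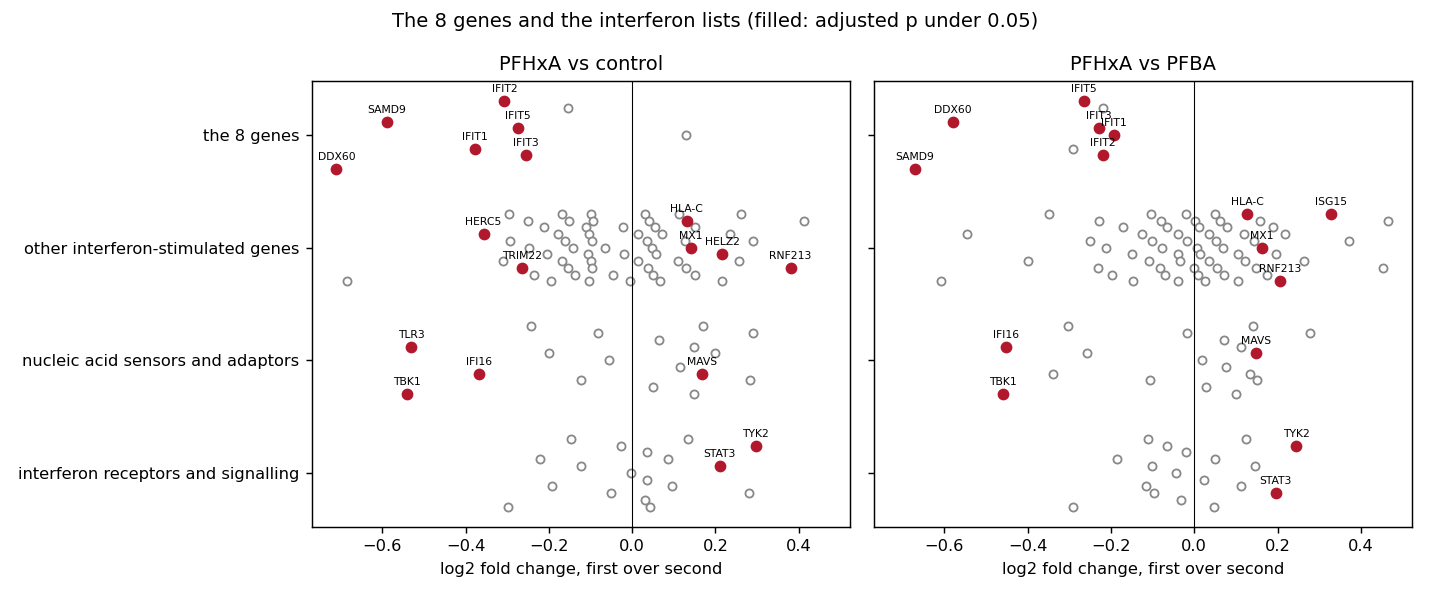
Log2 fold changes (first group over second) of the 8 genes and of the tested genes of 3 interferon lists, each point a gene and filled where the adjusted p was under 0.05, with vertical position within a band only to separate points. The 8 genes have 6 filled points below 0 in both panels, beside 8.82% of all tested genes called lower on the left and 7.07% on the right. They were chosen from the left contrast, and the right panel shares its PFHxA libraries, so neither count is independent support. With the trend over GC content and length removed, 3 of the 8 were called on the left and 0 on the right. The 62 other interferon-stimulated genes have 4 filled points above 0 in each panel and 2 below 0 against control.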

How the data were processed

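Per the labels' protocols, a VAHTS Universal kit turned total RNA into libraries, which an Illumina NovaSeq instrument sequenced. The authors deposited 1 table of read counts per Ensembl gene for the 12 libraries, whose FPKM columns were not used. Per the submitters' processing notes, reads were aligned with HISAT2 2.0.4 to GRCh38 (hg38). The counting program, annotation release and strand setting are not given in these sources. Columns name a group and a letter, a to d, which is not tied to the replicate numbers of the labels, so libraries are named by group and letter, and 0 count columns were left unmapped.

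filterByExpr (minimum count 10, minimum total 15) kept 16554 of 50868 genes, and TMM factors scaled the libraries. A single edgeR 4.0.16 quasi-likelihood model with robust settings and a term for group took in all 12 libraries (R 4.3.3, limma 3.58.1). Pairs of groups were compared by F tests, two-sided, adjusted by Benjamini-Hochberg over every tested gene, at 0.05. The SE is the log2 fold change divided by the square root of F, intervals are at 95%, and a prior count of 2 enters log2 CPM. The common biological coefficient of variation was 0.127, and at 16941599 to 21879105 reads per library DDX60 rests on 37 to 85 reads. A count of 0 allows up to 3 reads, which covers counting error only, because reads carry no molecular identifiers.

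GC content and length are those of the longest GENCODE 29 transcript, known for 99.4% of tested genes. The alternatives were RLE scaling, no filter, a stricter filter (1 CPM in 4 libraries, mean count 50), the 8 libraries of a comparison alone, DESeq2 1.42.0, the column letter as a block, each library left out in turn, and the GC and length trend of each library removed (natural splines in GC content and log2 length, 5 degrees of freedom each, as edgeR offsets). Over all tested genes, libraries with the same letter had deviations from their group means that correlated at -0.0896 to 0.0625. This shows no broad pairing by letter, and a pairing limited to some genes was not tested. The members, gene lists, tests and alternatives were chosen with earlier results of these data known. All 8 members are named. Of each list, up to 4 genes with the smallest p in PFHxA against control and in PFHxA against PFBA are named, and for likeness the 5 genes with the highest r. Promoter sequences are from RefSeq (GRCh38.p14). Correlations and figures used Python 3.11.15 with numpy 2.4.6, pandas 2.3.3, scipy 1.17.1 and matplotlib 3.10.9.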

Additional observations from a re-analysis of the deposited data

Results flagged for a closer look

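In 4 of the 24 sets formed by a gene and a group of 4 libraries, 1 library stood apart from the other 3 by Dixon's criterion at 95%, where chance gives about 1 in 20. These were IFIT2 in control b at 51.1 CPM, IFIT3 in PFHxA a at 40.4 CPM, IFIT3 in control d at 50.0 CPM and DDX60L in control b at 4.66 CPM. Control a, at 3.73 CPM for SAMD9L, did not meet that criterion although its group had the widest relative spread of any gene and group, because the other 3 controls also lay far apart.

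The effects of the acids differed by the test of PFHxA against PFBA, which is the difference of the effects relative to the shared controls. The genes were chosen for low values in these same PFHxA libraries, so this test is not independent of that choice. The log2 difference was -0.19 for IFIT1, -0.22 for IFIT2, -0.23 for IFIT3, -0.26 for IFIT5, -0.58 for DDX60 and -0.67 for SAMD9. With the trend over GC content and length removed, 0 of these 6 passed the threshold in edgeR, and the part of library GC slope in the differences cannot be told apart from treatment.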

How the results depend on the processing

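For PFHxA against control, where 2466 genes were called (1006 higher, 1460 lower), 416 (117 higher, 299 lower) passed the threshold after removal of the GC and length trend, and the count of the 8 genes called lower was 3 in place of 6. Leaving out 1 library gave 1523 (without PFHxA b) to 2396 calls. For PFHxA against PFBA, where 1806 were called (636 higher, 1170 lower), 125 (23 higher, 102 lower) and 0 of the 8 genes were called with the trend removed. Leaving out 1 library gave 1035 (without PFHxA b) to 2187 calls, and 3 to 6 of the 8 genes. PFBA against control had 1 call, with 2 under no filter, 2 in the fit of its 8 libraries alone, 44 in DESeq2, 0 with the replicate block of column letters, and 0 to 4 with 1 library left out. The block gave 2441 calls for PFHxA against control and 1838 for PFHxA against PFBA, and 5 of the 8 genes between the acids, since IFIT2 missed the threshold. For PFBA against control, IFIT3 ranged from -0.05 to 0.01 and IFIT5 from -0.04 to 0.02 with 1 library left out, so their signs turn, and for PFHxA against control so do those of DDX60L (-0.29 to 0.02) and SAMD9L (-0.16 to 0.40). DESeq2 gave no adjusted p for DDX60 and called 5 of the 8 genes lower in both comparisons with PFHxA. Under RLE scaling, both filters and the fit of 8 libraries 6 of the 8 were called lower in each comparison with PFHxA. Depth limits DDX60 and DDX60L most, with 37 to 106 reads per library. The cause of these dependences was not tested.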
